A study of Mus musculus with 4 samples.

Results

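A set of 10 genes of antigen presentation by the major histocompatibility complex (MHC) was followed in MPC11, a mouse plasmacytoma line, with and without depletion of Ell2. They were taken by gene symbol, and all 10 were found among the 22722 genes of the count tables: 6 of class I (B2m, H2-K1, H2-D1, Tap1, Tap2 and Tapbp) and 4 of class II (H2-Aa, H2-Ab1, Cd74 and Ciita). Total RNA came from 4 cultures, of which 2 received a lentiviral short hairpin RNA that targets GFP, which these cells do not encode (shGFP, the control), and 2 received a hairpin against Ell2, which encodes an elongation factor of RNA polymerase II (Ell2-KD, made with a single hairpin). Cells of both groups were exposed to virus for 18 h, selected in puromycin for 72 h and expanded for 72 h. Whether the 2 cultures of a group were transduced apart is not said in the labels, so p-values reflect the spread among these 4 samples only. The study was designed to look at splicing, which counts per gene do not resolve.

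MHC class I molecules show peptides from inside the cell to CD8 T cells, and nearly all nucleated cells make them. Each is a polymorphic heavy chain paired with beta-2 microglobulin and is loaded with peptide in the endoplasmic reticulum. Class II molecules show peptides from endocytosed proteins to CD4 T cells and belong to professional antigen-presenting cells, B cells among them. When a B cell becomes a plasma cell, Blimp-1 (Prdm1) represses Ciita, the transactivator on which class II chains depend, and class II is lost while class I is kept.

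Libraries held between 3496471 and 13914488 counts, and both extremes were Ell2-KD. Ell2 stood at 938 and 996 CPM (normalised counts relative to the scaled library total) in the controls, replicate 1 first here and below, against 87.8 and 115 CPM in Ell2-KD. Plasma cell markers were led by Igj, the joining chain of immunoglobulin, with 28894 to 130045 counts per library. Of 16 dendritic and myeloid markers 9 had at most 5 counts in every library, among them Itgax, Lyz2, Cd14, Tyrobp and Fcer1g, and the list summed to between 25.6 and 65.8 CPM of all counts, the most from Flt3. T and NK cell markers summed to between 2.16 and 9.04 CPM. Of 9 fibroblast and epithelial markers, Epcam alone had more than 58 counts in any library, with 2024 to 6259.

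Class I was expressed and the class II chains were far lower, but Cd74, the invariant chain of class II, stood with class I. Levels were compared between genes per length, as CPM per kb of the union of a gene's exons. Summed over H2-K1 and H2-D1, the level was 187 and 208 CPM per kb in shGFP, against 202 and 203 in Ell2-KD. Summed over H2-Aa and H2-Ab1 it was 1.38 and 3.65 CPM per kb in shGFP against 0.31 and 0.61 in Ell2-KD. Cd74 had 165 and 187 CPM per kb in shGFP against 103 and 162 in Ell2-KD. The class I chains were thus 136-fold and 57.0-fold above the class II chains in the 2 controls, and 662-fold and 332-fold above them in the 2 depleted libraries. Per kb of the principal annotated transcript, a length chosen after seeing the data, these ratios were 89.8-fold and 32.9-fold in the controls and 378-fold and 200.2-fold in the depleted libraries. Against Cd74 the same class I chains were 1.13-fold and 1.11-fold higher in the controls and 1.96-fold and 1.25-fold higher in the depleted cells. In bulk RNA, fewer cells of a type and less RNA per cell cannot be told apart.

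**Figure D1:**
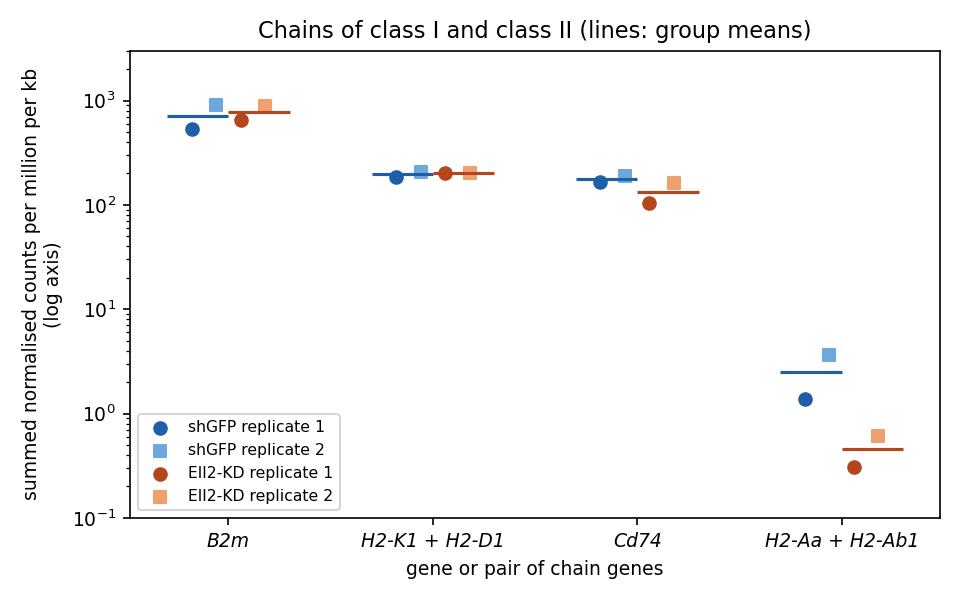
Summed level per length (CPM per kb, log axis) of B2m, the class I chains, Cd74 and the class II chains, with 1 point per library and a line at each group mean. The class I chains lie between 187 and 208 in all 4 libraries, Cd74 between 103 and 187, and the class II chains between 0.31 and 3.65.

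The promoters of 3 class I genes and of 1 class II chain are shown because they carry the same families of short motifs at very different transcript levels. RefSeq promoter windows of build GRCm38.p6, from 250 bases before to 50 bases after a start site, were at hand for 6 of the 10 genes (B2m, H2-K1, H2-D1, Tap1, Tapbp and H2-Aa). They are those of the C57BL/6J reference, whereas MPC11 descends from a BALB/c mouse with another H-2 haplotype, so the bases of the line itself can differ. Capitals mark matches on either strand to 4 motifs: GGG and CCC with any 5 bases between them (NF-kappaB type), TTTCNNTT (interferon regulatory factor type), ATTGG (the CCAAT or Y box of NF-Y type) and TGACG (the core of a cyclic AMP response element, as in an X2 box). B2m (chr2:122147437-122147736, plus strand), H2-K1 (chr17:34000284-34000583, minus strand, the more downstream of its 2 RefSeq starts), H2-D1 (chr17:35262844-35263143, plus strand) and H2-Aa (chr17:34287774-34288073, minus strand) read, from 5′ to 3′:
B2m: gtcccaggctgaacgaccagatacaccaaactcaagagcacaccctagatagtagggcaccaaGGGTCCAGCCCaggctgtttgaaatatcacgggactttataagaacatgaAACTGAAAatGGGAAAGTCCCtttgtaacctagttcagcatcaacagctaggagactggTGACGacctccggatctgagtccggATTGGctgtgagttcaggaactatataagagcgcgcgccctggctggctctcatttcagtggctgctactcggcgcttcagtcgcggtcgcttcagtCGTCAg
H2-K1: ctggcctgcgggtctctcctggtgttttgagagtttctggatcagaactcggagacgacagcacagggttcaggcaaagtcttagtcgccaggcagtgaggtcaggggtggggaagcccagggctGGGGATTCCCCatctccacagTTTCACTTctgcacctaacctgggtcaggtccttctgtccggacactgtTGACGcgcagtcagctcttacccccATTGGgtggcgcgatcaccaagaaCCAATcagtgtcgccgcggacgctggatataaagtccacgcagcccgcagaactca
H2-D1: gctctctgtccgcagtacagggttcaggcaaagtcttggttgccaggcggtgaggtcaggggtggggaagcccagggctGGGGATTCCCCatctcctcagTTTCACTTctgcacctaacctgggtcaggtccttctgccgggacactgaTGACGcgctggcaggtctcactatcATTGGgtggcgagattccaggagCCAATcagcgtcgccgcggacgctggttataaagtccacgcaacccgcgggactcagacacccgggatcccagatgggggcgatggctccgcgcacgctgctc
H2-Aa: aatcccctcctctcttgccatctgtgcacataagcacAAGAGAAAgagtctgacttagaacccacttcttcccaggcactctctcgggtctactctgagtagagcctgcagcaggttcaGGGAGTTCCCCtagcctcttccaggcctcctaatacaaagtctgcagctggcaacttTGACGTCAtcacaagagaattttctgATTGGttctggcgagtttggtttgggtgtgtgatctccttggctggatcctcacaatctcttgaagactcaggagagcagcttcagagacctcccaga

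Each of these 4 windows held all 4 motifs. In H2-K1 and H2-D1 the NF-kappaB match was the same run, GGGGATTCCCC, followed by the same interferon-type match, TTTCACTT. H2-Aa held GGGAGTTCCCC at position -131 from the start, and ATTGG at -48. It also held TGACG and its reverse complement overlapping in 1 palindrome from -74; matches of different motifs did not overlap in these windows. Over all 32851 RefSeq promoter windows of the same length, 14% matched the NF-kappaB type, 23.9% TTTCNNTT, 37.4% ATTGG and 20.8% TGACG, so single matches are common. Tap1 lacked TTTCNNTT, and Tapbp matched ATTGG alone. A match is a run of letters and was not tested as a binding site.

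B2m, the light chain shared by all classical class I molecules, was the highest of the 10 genes per length. It stood at 528 and 897 CPM per kb in shGFP against 651 and 886 in Ell2-KD, and its control mean of 712 ± 261 (SD, n = 2) lay above 99.7% of the 21329 genes with a known length. Both replicates numbered 2 were high and both numbered 1 were low, so the groups overlapped fully. Relative to the summed heavy chains, B2m was 2.82-fold and 4.31-fold higher in the controls and 3.22-fold and 4.37-fold higher in the depleted cells.

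H2-D1 and H2-K1 encode the classical heavy chains. H2-D1 was the steadier, at 124 and 111 CPM per kb in shGFP against 118 and 120 in Ell2-KD. H2-K1 stood at 62.3 and 97.1 CPM per kb in shGFP against 84.3 and 82.7 in Ell2-KD, with both depleted libraries between the controls. H2-K1 was below H2-D1 in 4 of 4 libraries, at 0.50 and 0.87 of its level in shGFP and 0.72 and 0.69 in Ell2-KD. That order rested on the length used: per kb of the principal annotated transcript, the control means of both genes were 145 CPM per kb. Heavy chain genes are near-copies of one another, and 8.11% of the 50-base windows of the longest H2-K1 transcript and 14.3% of those of H2-D1 also occur in transcripts of other genes. How reads of the H-2 haplotype of this line were counted on the reference was not tested, and values of single heavy chains are uncertain for both reasons.

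The loading machinery was lower and uneven. Tapbp encodes tapasin, which holds empty class I molecules at the peptide transporter, and stood at 63.5 and 45.9 CPM per kb in shGFP against 70.3 and 61.1 in Ell2-KD. Tap1 and Tap2 form that transporter, which moves peptides from the cytosol into the endoplasmic reticulum. Tap2 had 13.6 and 14.2 CPM per kb in shGFP against 17.5 and 17.2 in Ell2-KD, and Tap1 7.23 and 5.98 in shGFP against 6.36 and 4.12 in Ell2-KD. The transporter subunits were unequal in transcript level, with Tap2 above Tap1 by 1.88-fold and 2.37-fold in the controls and 2.75-fold and 4.18-fold in the depleted cells. The size of that gap rested on the length used: per kb of the principal annotated transcript, the control means were 15.3 CPM per kb for Tap2 and 12.2 for Tap1. The groups did not overlap for Tap2, where both depleted libraries were higher, and did overlap for Tap1 and Tapbp. Tap1 shares 3.87% of its exon bases with Psmb9 on the opposite strand, Tap2 14.1% with the RNA Gm15821, and Tapbp 24.9% with the antisense RNA Gm19412. The strand setting of the counts is not given in the sources used here, so reads of these partners may be included.

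Among the class II genes, Cd74 encodes the invariant chain, which chaperones class II dimers and fills their groove until they reach the endosome. Its level of 176 ± 15.9 CPM per kb (SD, n = 2) in the controls was above 98.9% of genes with a known length, and it was second to B2m among the 10. It lay above H2-D1 in 3 of 4 libraries, the exception being Ell2-KD replicate 1. Cd74 exceeded the summed class II chains by 120-fold and 51.3-fold in the controls and by 337-fold and 265-fold in the depleted cells. No 50-base window of its longest transcript occurs in a transcript of another gene.

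H2-Aa and H2-Ab1 encode the alpha and beta chains of the I-A molecule that Cd74 would chaperone. H2-Ab1 had 29 and 29 counts in shGFP against 7 and 4 in Ell2-KD, which is 3.46 and 5.75 CPM against 0.50 and 1.17 CPM. Both depleted libraries were low. H2-Aa had 1 and 27 counts in shGFP against 6 and 2 in Ell2-KD, so shGFP replicate 2 held most of its counts and the groups overlapped. The libraries ranked differently for these 2 partner chains. Their control means of 1.79 ± 0.63 CPM per kb for H2-Ab1 and 0.72 ± 0.98 for H2-Aa (SD, n = 2) were low but not the lowest. They lay above 58.1% and 52.2% of genes with a known length, where the median of tested genes was 8.06 CPM per kb.

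Ciita encodes the transactivator that class II chains require. It had 1 and 2 counts in shGFP against 2 and 5 in Ell2-KD. The exact 95% Poisson interval, which covers counting error only, ran from 0.003 to 0.66 CPM in shGFP replicate 1 and from 0.48 to 3.42 CPM in Ell2-KD replicate 2, where the estimate was highest. Per length, Ciita at 0.03 ± 0.02 CPM per kb (SD, n = 2) was the lowest of the 10 genes in the controls. It was below Cd74 in all 4 libraries.

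In order of control mean per length, the 10 genes ran B2m, Cd74, H2-D1, H2-K1, Tapbp, Tap2, Tap1, H2-Ab1, H2-Aa and Ciita. Values of all 4 libraries overlapped between these neighbours for Cd74 and H2-D1, H2-K1 and Tapbp, H2-Ab1 and H2-Aa, and H2-Aa and Ciita. The step from Tap1 to H2-Ab1 held in 4 of 4 libraries without overlap, and separates the 7 genes with at least 77 counts in every library from the 3 with at most 29.

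**Figure D2:**
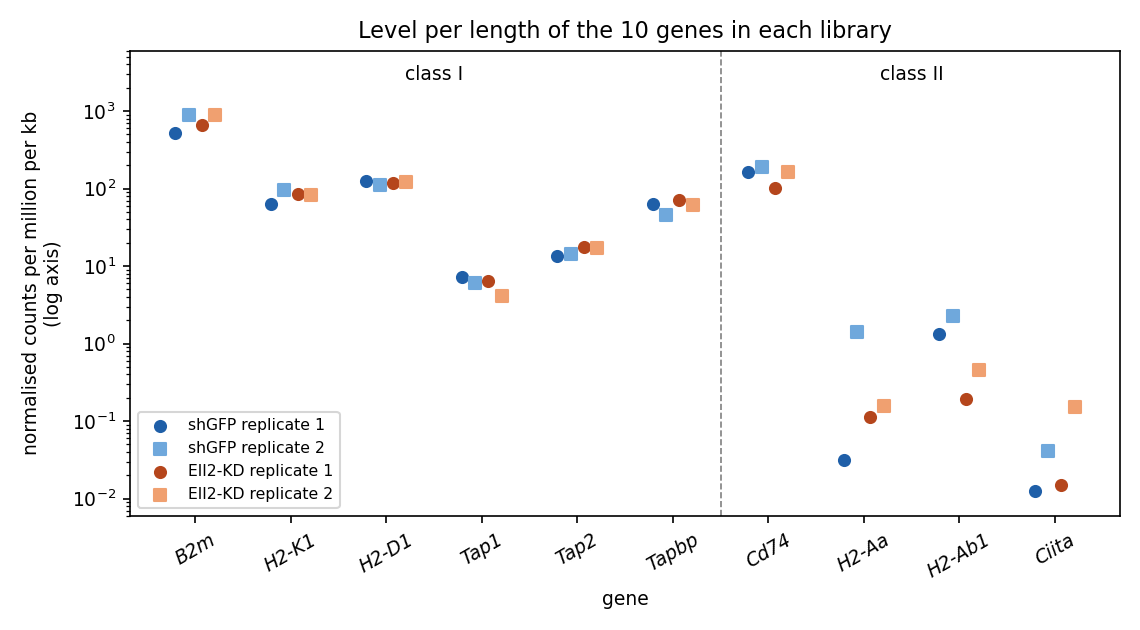
Level per length (CPM per kb, log axis) of the 10 genes, with 1 point per library. Class I genes and Cd74 lie between 4.12 and 897 in every library, and H2-Aa, H2-Ab1 and Ciita at or below 2.24.

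None of these genes passed the test between Ell2-KD and shGFP. Of the 10, 8 had enough counts to be tested (6 of class I, with Cd74 and H2-Ab1 of class II) and H2-Aa and Ciita did not. In the quasi-likelihood test of edgeR, adjusted by Benjamini and Hochberg over 11027 genes, 0 of 8 passed an adjusted p of 0.05, where 0.0453% of all tested genes passed (0.00907% higher and 0.0363% lower), and 0 of 8 had an unadjusted p under 0.05, where 5.82% did. DESeq2 also called 0 of the 8. The groups did not overlap for 3 of 8 (Tap2 higher, Cd74 and H2-Ab1 lower in the depleted cells), a share of 37.5% beside 35.8% of all tested genes.

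Among class I genes the log2 changes were small and their intervals bounded. H2-D1 differed by 0.01 ± 0.21 (SE) on the log2 scale, with a 95% interval from -0.46 to 0.48 (edgeR adjusted p = 0.999). H2-K1 differed by 0.07 ± 0.26, with an interval from -0.50 to 0.64, and B2m by 0.11 ± 0.27, with an interval from -0.49 to 0.70. A doubling or halving, a log2 change of 1 in either direction, lay outside the intervals of these 3 genes and of Tapbp (0.26 ± 0.25, from -0.28 to 0.81). It lay within those of Tap1 (-0.33 ± 0.42, from -1.25 to 0.60) and, at the upper bound of 1.00, of Tap2 (0.32 ± 0.31). With 1 library left out the sign turned for B2m (-0.21 with shGFP replicate 1 left out and -0.13 with Ell2-KD replicate 2 left out), for H2-K1 (-0.21 without shGFP replicate 1) and for H2-D1 (-0.066 without shGFP replicate 2).

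Both tested class II genes had lower values in the depleted cells, and neither passed. Cd74 stood at 277 and 315 CPM in shGFP against 173 and 272 CPM in Ell2-KD. Ell2-KD replicate 2 was thus almost level with shGFP replicate 1. The log2 change was -0.41 ± 0.26 (SE), with an interval from -0.99 to 0.16 (edgeR adjusted p = 0.906), and ran from -0.77 without Ell2-KD replicate 2 to -0.12 without Ell2-KD replicate 1. H2-Ab1 had a log2 change of -2.53 ± 1.41, with an interval from -5.63 to 0.57 (edgeR adjusted p = 0.891). It passed the filter on low counts through the control libraries, where it is high, so its separation is no support for a change. The log2 ratio of class I over class II chains was 6.46 ± 0.88 (SD, n = 2) in the controls and 8.87 ± 0.70 (SD, n = 2) in the depleted cells, 2.42 higher in the latter. No test was made of it, and it rests on 6 to 56 class II counts per library. Irf8, a B cell and myeloid factor, had 93 and 37 counts in shGFP against 3 and 0 in Ell2-KD. It passed the filter through the controls, so its separation is no support for a change. Pax5, the B cell identity factor, had 30 and 1 counts in shGFP against 0 and 0 in Ell2-KD. Pax5 was below the filter, and its counts lay almost all in shGFP replicate 1. Of the 5 tested B cell markers, 2 had log2 changes above 0 and 3 below 0.

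**Figure D3:**
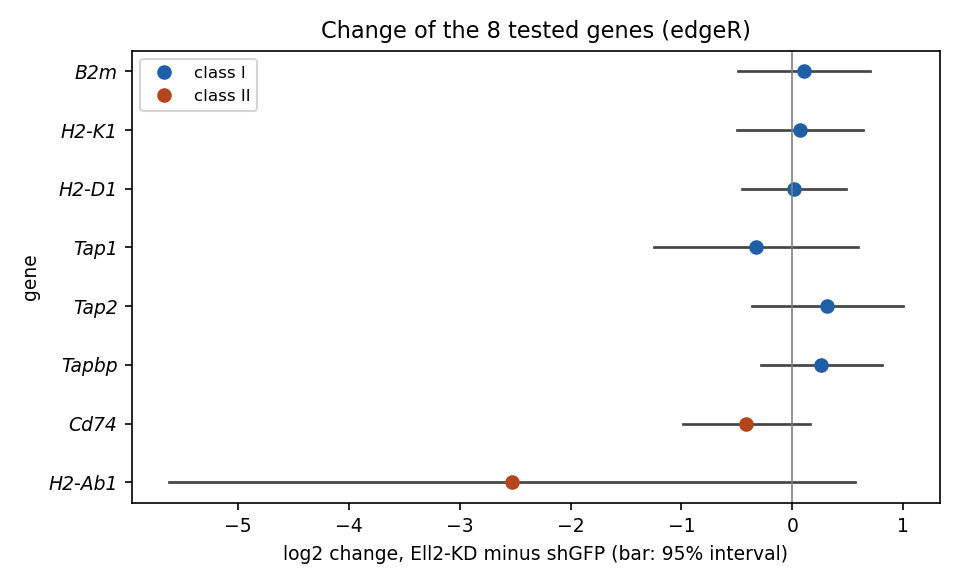
Log2 change between Ell2-KD and shGFP for the 8 tested genes, with 95% intervals from the edgeR fit. All 8 intervals include 0, those of H2-D1, H2-K1, B2m and Tapbp stay within 1 on either side, and that of H2-Ab1 runs from -5.63 to 0.57.

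Markers of B cells went both ways between the groups, and those of plasma cells were lower in the depleted cells. Of 14 B cell markers 5 were tested, and none passed, beside 0.0453% of all tested genes. Ms4a1, which encodes the surface protein CD20, stood at 378 and 348 CPM in shGFP against 836 and 941 CPM in Ell2-KD (log2 change 1.29 ± 0.20; edgeR adjusted p = 0.086). Bank1 was also higher without overlap of the groups, Irf8 lower without overlap, and Cd79b and Bach2 overlapped. Irf8 passed the filter on low counts through the control libraries, where it is high, so its separation is no support for a change. Spib, below the filter, had 1 and 2 counts in shGFP against 35 and 4 in Ell2-KD, and Cd22, Cd79a, Cr2, Fcer2a and Blk had at most 6 counts in every library. The B cell list summed to 1426 and 1394 CPM of all counts in shGFP against 1962 and 1830 in Ell2-KD. That sum was mostly Cd79b, with means of 1024 CPM in shGFP and 993 in Ell2-KD, and Ms4a1, with 363 and 888. The higher sum thus lay in Ms4a1 and not in the list as a whole. The 9 plasma cell markers all had log2 changes below 0, with a median of -0.39, and 8 of them (88.9%) were lower in Ell2-KD without overlap, beside 18.5% of all tested genes. Their sum was 21630 and 16616 CPM of all counts in shGFP against 17568 and 13832 in Ell2-KD, so the sums overlapped. None of the 9 passed. The one with the largest change was Tnfrsf17, a survival receptor of plasma cells, with 159 and 126 counts in shGFP against 18 and 1 in Ell2-KD (log2 change -4.56 ± 0.81; edgeR adjusted p = 0.183). Tnfrsf17, which is among the 8 without overlap, passed the filter through the control libraries, where it is high. Its separation is therefore no support for a change. Of 16 dendritic and myeloid markers 4 were tested and none passed. All 4 had log2 changes above 0, with a median of 1.16. Zbtb46 was higher without overlap, with 27 and 32 counts in shGFP against 109 and 60 in Ell2-KD. So was Mpeg1, with 3 and 13 counts against 65 and 23. These are 50% of the 4, beside 17.4% of all tested genes. Mpeg1 passed the filter through the depleted libraries, where it is high, so its separation is no support for a change. The part of all these markers in the class II values was not tested, and those named here were chosen after their values were seen.

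The class I pathway as a whole was measured with a list of 36 genes. All 6 class I genes described above are in it, and 27 of the 36 were tested, these 6 included. None passed an adjusted p of 0.05 in either direction (edgeR, 0 and 0 of 27), beside 0.0453% of all tested genes. The log2 change was above 0 for 15 and below 0 for 12, beside 49.9% of all tested genes above 0, and the median was 0.02 beside -0.00 over all tested genes. The groups did not overlap for 33.3% of them, near the 35.8% of all tested genes. H2-T24, a nonclassical class I gene, had the smallest p of the list among genes with a lower value, at 95.9 and 92.9 CPM in shGFP against 65.4 and 53.6 CPM in Ell2-KD (log2 change -0.66 ± 0.29; edgeR adjusted p = 0.83). Peptides for class I are cut by the immunoproteasome, whose catalytic subunits stood at 293 ± 43.4 CPM for Psmb8 in the controls, 51.1 ± 7.47 for Psmb9 and 42.5 ± 7.88 for Psmb10 (SD, n = 2). Their log2 changes were 0.02, 0.19 and 0.07. The chaperones that fold the heavy chain, Calr, Canx and Pdia3, had log2 changes of -0.13, 0.05 and -0.08, and Erap1, which trims peptides in the endoplasmic reticulum, of 0.03. The named immunoproteasome and chaperone genes were chosen after their values were seen.

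In the class II pathway 21 genes were counted, including the 4 class II genes described above. Of the 21, 10 were tested, with Cd74 and H2-Ab1 among them. In edgeR 0 of the 10 passed an adjusted p of 0.05, beside 0.0453% of all tested genes. Log2 changes were positive for 7 and negative for 3, with a median of 0.06. The groups did not overlap for 50% of the tested genes of this list (5 of 10), beside 35.8% of all tested genes. Cd74 and H2-Ab1 are among these 5. H2-Ab1 passed the filter on low counts through the control libraries, where it is high, so its part in this share is no support for a change. Of 10 H2 genes of class II, 6 had at most 5 counts in every library: H2-Ea-ps, H2-Eb2, H2-DMb1, H2-DMb2, H2-Oa and H2-Ob. H2-Eb1, the I-E beta chain, had 0 and 17 counts in shGFP against 20 and 1 in Ell2-KD. H2-DMa, a chain of the peptide editor of class II, was the exception, with 154 and 48 counts in shGFP against 257 and 109 in Ell2-KD, while its partner H2-DMb1 had between 0 and 2. H2-DMa shares 10.4% of its exon bases with Brd2 on the opposite strand. Genes that class II shares with general endosomal proteolysis were plentiful: Ctss, the protease that finishes invariant chain cleavage, stood at 608 ± 94.0 CPM in the controls (SD, n = 2) and 698 ± 117 in the depleted cells. Lgmn, an asparaginyl endopeptidase, was at 183 and 147 CPM in shGFP against 222 and 209 in Ell2-KD (log2 change 0.39 ± 0.24; edgeR adjusted p = 0.906). Ifi30 of the same list was lower without overlap, at 68.3 and 51.0 CPM in shGFP against 43.6 and 16.4 in Ell2-KD. Its log2 change was -0.97 ± 0.46 (edgeR adjusted p = 0.86), with the smallest p of the 10 tested.

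**Figure D4:**
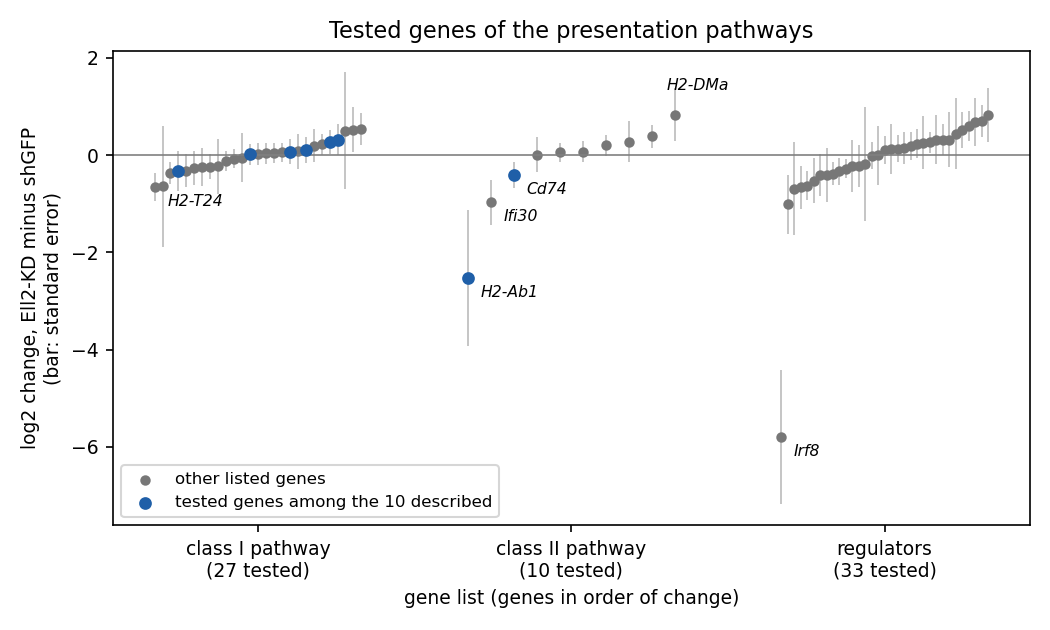
Log2 change between Ell2-KD and shGFP, with standard errors, for the tested genes of the class I pathway (27), the class II pathway (10) and their regulators (33), in order of change. Class I genes lie between -0.66 and 0.53, and H2-Ab1 at -2.53 and Irf8 at -5.80 stand lowest.

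Of 38 regulators counted, 33 were tested, and 0 passed an adjusted p of 0.05 in edgeR, beside 0.0453% of all tested genes. Log2 changes were positive for 17 of the tested regulators and negative for 16, with a median of 0.11. The groups did not overlap for 42.4% of them, beside 35.8% of all tested genes. Nlrc5, the transactivator of class I, had 110 and 83 counts in shGFP against 184 and 77 in Ell2-KD, and its control mean of 1.74 ± 0.28 CPM per kb (SD, n = 2) stood above that of Ciita, its class II counterpart. The RFX subunits that both transactivators work with were measured in all 4 libraries, at 58.8 ± 3.78 CPM for Rfx5, 19.2 ± 6.47 for Rfxap and 20.5 ± 3.50 for Rfxank in the controls (SD, n = 2). Rfxank had 10.4 ± 6.39 CPM in Ell2-KD (SD, n = 2), with both depleted libraries below both controls (log2 change -1.01 ± 0.61; edgeR adjusted p = 0.906). That change ran from -1.80 without Ell2-KD replicate 2 to -0.46 without Ell2-KD replicate 1. Rfxank shares 33.8% of its exon bases with Nr2c2ap on the opposite strand, so reads of that gene may be included. Prdm1 stood at 384 and 282 CPM in shGFP against 272 and 238 in Ell2-KD (log2 change -0.39 ± 0.24; edgeR adjusted p = 0.906), and Irf4, a partner of Blimp-1 in plasma cells, at 1871 and 1623 against 1615 and 1267 CPM. Irf1, an interferon-induced activator of class I genes, was at 50.9 and 84.7 CPM in shGFP against 111 and 109 in Ell2-KD (log2 change 0.70 ± 0.32; edgeR adjusted p = 0.853). Nfyb, a subunit of the CCAAT-binding factor NF-Y, had a log2 change of 0.60 ± 0.31, and Kat2b, an acetyltransferase, of -0.63 ± 0.30. Irf8 had a log2 change of -5.80 ± 1.38 (edgeR adjusted p = 0.45), a fitted value that depends on how the 0 count is handled. Irf8 passed the filter on low counts through the control libraries, where it is high, so its separation is no support for a change. DESeq2 called it (adjusted p = 0.0174) among genes kept by the same filter. No edgeR fit of all 4 libraries did, with an adjusted p from 0.106 without the filter to 0.457 with the stricter filter.

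The genes whose profile over the 4 libraries lay closest to those of B2m and Cd74 were sought among 4537 others with a mean of at least 50 CPM, by the root mean square difference of centred log2 CPM. For B2m they were Ccrn4l (0.03), Psmc6 (0.03) and Sucla2 (0.04), and for Cd74 Mib1, 1810026J23Rik and Slc25a44 (each 0.05). These are given as a description over 4 libraries.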

How the data were processed

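Per the labels' protocols, RNA of MPC11 cultures was sequenced on the SOLiD platform. The authors deposited raw read counts per gene symbol, 1 table per library, per the file headers. DESeq 1.4.1, HTSeq 0.5.3, SAMtools 0.1.11 and the build mm9 appear in the submitters' processing notes, with the aligner, annotation and strand setting not given in the sources used here. With edgeR 4.0.16 in R 4.3.3, filterByExpr (minimum count 10, total 15) kept 11027 of 22722 genes, scaled by TMM, and glmQLFit and glmQLFTest compared the groups with group as the only term (two-sided). The standard error is the log2 change divided by the square root of F. DESeq2 1.42.0, RLE factors, other filters, a replicate block and leaving out each library were alternatives.

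Lengths came from GENCODE M21 (GRCm38, not the authors' build), matched for 19472 symbols as written and 1857 through an older symbol, with 1393 unmatched. Library totals, replicate 1 first, were 8323915 and 5088789 in shGFP against 13914488 and 3496471 in Ell2-KD. Members and lists were chosen with earlier results of these data known. Named were the 10 genes, Ell2, for each direction the 3 genes of smallest p over the class I pathway, class II pathway and regulator lists, known regulators and H2 class II genes. Some listed genes are not reported here by name.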

Additional observations from a re-analysis of the deposited data

How the results depend on the processing

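Over 71 alternative fits of the 8 tested genes, none passed the threshold, and 67 kept their direction; the 4 that turned were 2 for B2m (-0.21 without shGFP replicate 1, -0.13 without Ell2-KD replicate 2), 1 for H2-K1 (-0.21) and 1 for H2-D1 (-0.066), all with 1 library left out, where B2m ran from -0.21 to 0.54, H2-K1 from -0.21 to 0.42 and H2-D1 from -0.066 to 0.11. H2-Ab1 could not be fitted under the stricter filter, which removed it. Among regulators the sign turned for Nlrc5 (-0.18 without Ell2-KD replicate 2, to 0.62) and Rfxap (0.16 without shGFP replicate 2, 0.10 without Ell2-KD replicate 1, and down to -0.61). Over all genes 5 passed in the fit reported, 22 without a filter, 28 with the replicate block and 46 with DESeq2; with 1 library left out, between 1 and 6 passed, where a lone library is assumed to vary like the other group. The causes were not tested. Same-numbered libraries deviated together (correlation 0.31 over 11027 genes), but the labels do not say what a number stands for and there are 2 pairs, so no pairing was assumed; with the replicate block the smallest adjusted p of the 8 genes was 0.413 (Cd74, 0.656 to 1.00 in the other alternatives). The log2 ratio of class I over class II chains in the controls was 6.46, 5.96 per longest and 5.76 per principal transcript, and from 5.83 to 7.08 with 1 control left out; it was 2.44 with all 6 and 4 genes of each class and 0.17 with Cd74 alone for class II, an alternative added after seeing the data, since Cd74 outweighs the chains. The difference of that ratio between groups was 2.42, 2.49 and 2.34 with those lengths, from 1.79 to 3.04 with 1 library left out, 0.58 with all genes of each class and 0.48 with Cd74 alone. H2-Aa, H2-Ab1 and Ciita had at most 7 counts in both the deepest and the shallowest library, which were both Ell2-KD. In the controls H2-Ab1 reached 29 counts and H2-Aa 27, so that comparison covers the depleted cells only.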
